A study of Macaca mulatta with 32 samples.

Results

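The prefrontal cortex (PFC) of the rhesus macaque was compared with the rest of the sampled neocortex in a survey of circular RNAs (circRNAs). The PFC libraries were those whose label names that region, 4 of the 32 libraries of the series. They were set against 16 libraries from 4 other neocortical regions: posterior cingulate (PCC), temporal (TC), parietal (PC) and occipital (OC). The 12 libraries of hippocampus and cerebellar cortex were not used. The tissue came from 8 healthy, socially housed macaques of 10 or 20 years, of both sexes, and the labels name no drug and no modified gene. Each library holds the mixed RNA of 2 animals of one sex and age, so every region has the same 4 pools: 10-year females (10F), 10-year males (10M), 20-year females (20F) and 20-year males (20M). Age and sex are thus represented by 1 PFC library per combination, and the spread between PFC libraries includes both. By the study's methods, each tissue piece was cut from one site: the main sulci for PFC, the cingulate cortex for PCC, the superior temporal gyrus for TC, the middle of the Sylvian fissure for PC and the primary visual cortex for OC. Poly(A) RNA and ribosomal RNA were removed and linear RNA was digested with RNase R before sequencing.

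A circRNA arises when the spliceosome joins the end of an exon to the start of the same or an earlier exon, which closes the RNA into a ring without ends. Such rings resist exonucleases, they are abundant in neurons, and many derive from genes of the synapse. They are recognised in sequencing data only by reads across the reversed junction, called back-splice reads. The prefrontal cortex is an association area of the frontal lobe that serves working memory and planning, whereas OC as sampled here is a primary sensory area. In mixed tissue, a lower number of cells that make a circRNA and a lower amount per cell cannot be told apart.

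In PFC, 19323 circRNAs were found in at least 1 of 4 libraries, out of 43868 in the neocortex. Of these, 13351 (69.1%) were listed as exonic, 2031 (10.5%) as intronic and 3941 (20.4%) as intergenic. They came from 5342 genes, of which 2345 gave 1 circRNA in PFC and 224 gave 10 or more. The genes with the most circRNAs in PFC, named after their counts were seen, were ATP9B with 41 and the diacylglycerol kinase gene DGKI with 31. A core of 1391 circRNAs was found in all 4 PFC libraries, and this core held 58.7% of the PFC back-splice reads. The joined ends of a core circRNA lay a median of 5315 bases apart, those of all PFC circRNAs 6807 bases.

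PFC libraries held 244062 (10F), 305272 (10M), 364927 (20F) and 247663 (20M) back-splice reads, against 58037 to 894932 in the other 16 libraries. The 20F library of PFC stood apart from the other PFC libraries. It listed 4126 circRNAs, whereas the 10F, 10M and 20M libraries listed 7896, 10052 and 8527. It is also one of 3 neocortical libraries, with 20F of PCC and 10M of PC, that a read table of the study puts at over 95% clean reads. Of the 1942 circRNAs found in exactly 3 PFC libraries, 1139 lacked only the 20F library. Some results that rest on this library are given with and without it below, and others only with it.

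Because detection rises with depth, every library was thinned to 58037 reads, the depth of the shallowest one. At that depth the PFC libraries held 6704 ± 1994 circRNAs (SD, n = 4) and the others 5878 ± 1399 (SD, n = 16), a difference smaller than the spread between libraries (exact two-sided permutation test over 4845 choices of 4 libraries, p = 0.345, adjusted p = 0.411 over 7 measures). Intronic circRNAs took 5.88 to 6.58% of reads in PFC and 6.13 to 8.37% elsewhere, with means of 6.30% and 7.25% (exact permutation p = 0.0208, adjusted p = 0.109). The mean log10 distance between joined ends was 3.68 ± 0.04 in PFC and 3.61 ± 0.06 elsewhere (exact permutation p = 0.0312, adjusted p = 0.109). The 100 most abundant circRNAs of a library took 29.5 ± 2.3% of reads in PFC and 32.03 ± 2.59% elsewhere (exact permutation p = 0.0937, adjusted p = 0.219). None of the 7 measures passed the adjusted test with all 20 libraries. Without the 3 libraries named above, the distance passed it, with a difference of 0.097 and an adjusted p of 0.0412.

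**Figure D1:**
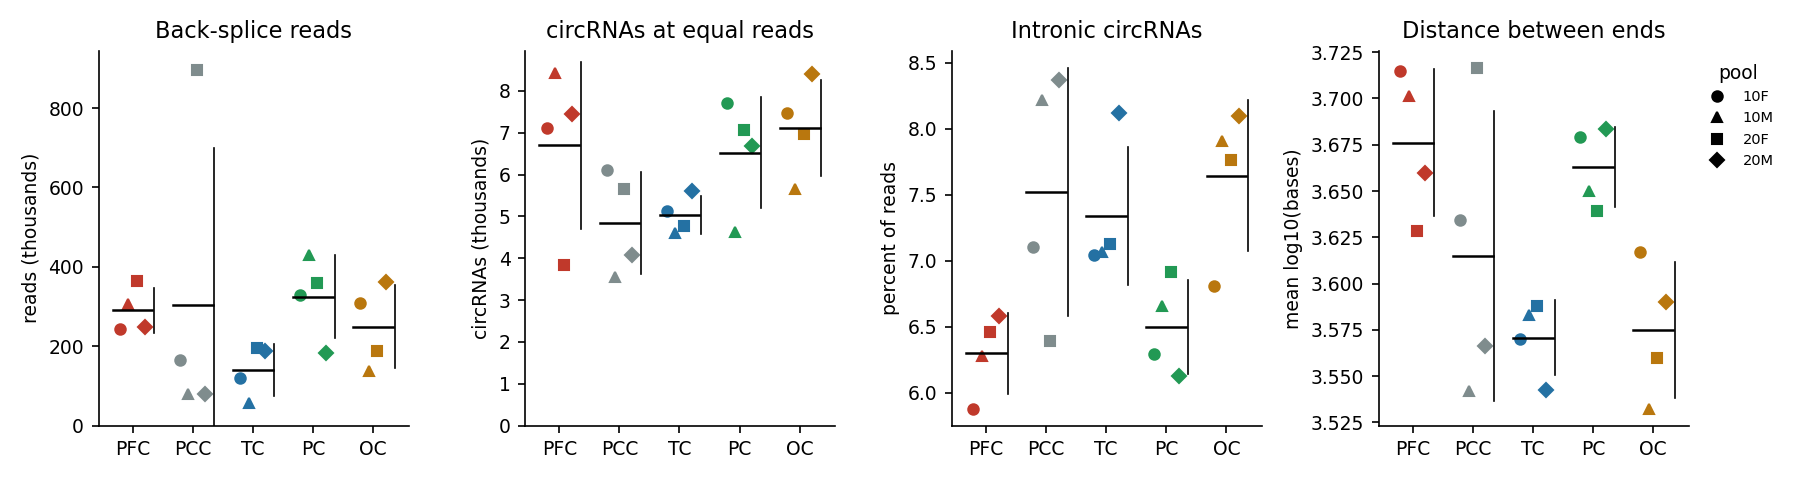
Library measures by region. Each symbol is 1 of 20 libraries, shaped by pool (10F, 10M, 20F, 20M), with regions on the x axis. The panels give back-splice reads, circRNAs found at 58037 reads (both on linear axes), the percent of reads in intronic circRNAs and the mean log10 distance in bases between joined ends; horizontal lines are means and vertical lines are ±1 SD (n = 4), with that of PCC reads cut at 0. The PFC libraries lie at 5.88 to 6.58% intronic reads, under all 4 TC libraries (from 7.05%), and the PFC 20F library has the fewest circRNAs of the 4 PFC libraries.

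Levels are given in TPM, the deposited unit, which here is the number of back-splice reads times 1 constant per library. The circRNA with the highest mean in PFC came from GDAP1L1 (chr10:20186521-20187867, minus strand, exonic; the genome build of all positions is not given in the sources used here), a paralogue of the mitochondrial fission factor GDAP1. It reached 4045 TPM in 10F, 3423 in 10M, 4412 in 20F and 3162 in 20M. In the other neocortex its lowest, median and highest levels were 1264, 3534 and 5979 TPM, so the PFC levels lay inside that range (limma log2 difference 0.21, SE 0.23, adjusted p = 0.910). The second came from C6ORF142 (chr4:53822249-53875750), the gene of the muscle-enriched protein MLIP, with 3005, 2522, 3533 and 1718 TPM in 10F, 10M, 20F and 20M. Elsewhere it ran from 0 through a median of 1857 to 4904 TPM. The PFC libraries lay within this range, and PFC exceeded the mean of the other regions of its own pool in 4 of 4 pools. TC held 1921, 4904, 4523 and 2520.5 TPM in 10F, 10M, 20F and 20M, above PFC in all but 10F. OC held 300.2 to 1106 TPM and the 10M library of PCC was listed at 0, and these lower the pool means.

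The next 8 were circRNAs of KIAA0802, an unnamed gene (ENSMMUG00000005637), the microtubule-binding protein gene MAP7, the phospholipid flippase gene ATP9B, the histone-reader gene PHF21A, the tubulin-binding gene TBCEL, and 2 intergenic circRNAs on chromosomes 11 and 14. Their PFC means ran from 1098 TPM for TBCEL to 1771 TPM for KIAA0802. None of the 10 differed from the other neocortex at an adjusted p under 0.05 by limma, where the smallest adjusted p was 0.314 (C6ORF142) and the next 0.429. For KIAA0802, the unnamed gene, MAP7 and the intergenic circRNA on chromosome 14, the 20F library of PFC held 3438, 3260, 3156 and 2418 TPM. Its 3 companions held at most 1456, 915, 963 and 878 TPM. Of the 100 circRNAs with the highest PFC means, 80 were also among the 100 highest of the other neocortex. By single region, PFC shared 85 of its 100 with PC, 80 with PCC, 75 with OC and 74 with TC.

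**Figure D2:**
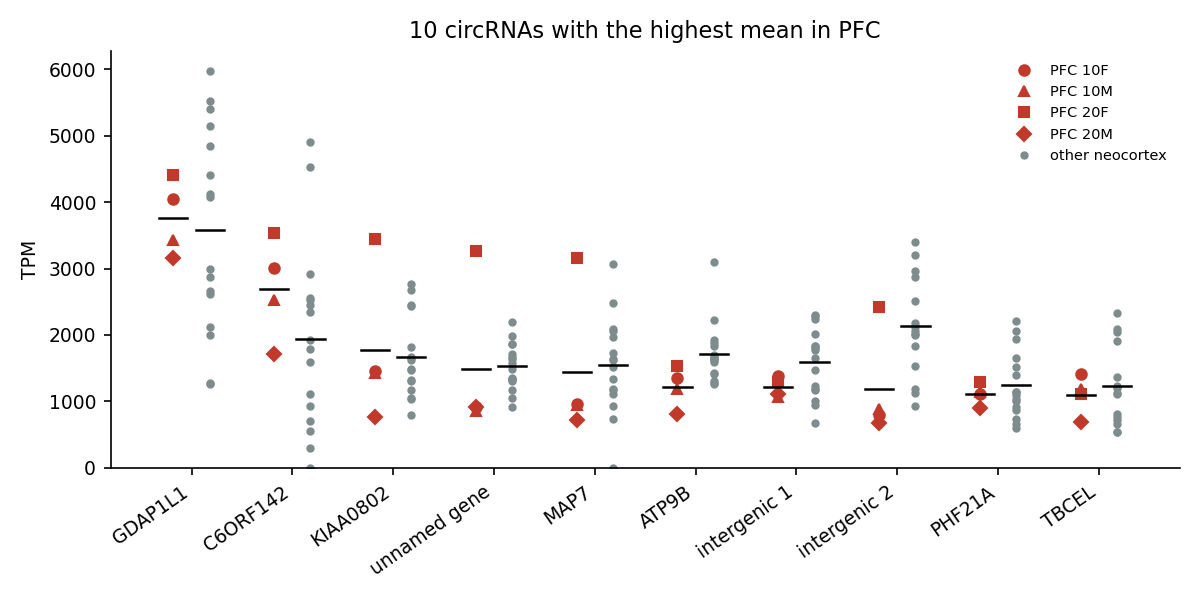
The 10 circRNAs with the highest mean in PFC, in TPM on a linear axis from 0. Red symbols are the 4 PFC libraries by pool, grey points the 16 other neocortical libraries and horizontal lines the means. All PFC points lie inside the range of the other libraries for GDAP1L1, C6ORF142, the first intergenic circRNA, PHF21A and TBCEL, and the 20F library of PFC lies far above its companions for KIAA0802, the unnamed gene, MAP7 and the second intergenic circRNA.

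Across all circRNAs, few passed the adjusted test of PFC against the rest of the neocortex, which does not show that levels were equal. The 14174 circRNAs that passed a filter on detection, adapted from the study's to the 20 libraries, were tested with limma on log2(TPM + 1.775), 4 libraries against 16. At an adjusted p under 0.05, 0 were higher in PFC (0% of those tested) and 1 was lower (0.00706%). At an unadjusted p under 0.05, 795 were higher (5.61%) and 167 lower (1.18%). This split turned with the processing: a stricter filter gave 52 higher and 142 lower, and voom on recovered reads 201 higher and 1935 lower. The circRNAs tested were sparse: a median of 5 libraries listed each one, and 65.5% of the values were 0. In such a table limma took the spread of each circRNA from the overall trend alone, so the p of a circRNA that varies more than others of its level is too small. An exact permutation p over the 4845 choices, which does not share this trend, is therefore given beside the circRNAs that the comparison turns on. It has a smallest possible value of 0.000206.

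The circRNA that fell in PFC was a single-exon ring of MDM2 (chr11:65812920-65813210, plus strand, 291 bases), the gene of the ubiquitin ligase that marks p53 for degradation. It stood at 91.0 TPM in 10F, 170 in 10M, 0 in 20F and 148 in 20M. In the other 16 libraries the lowest, median and highest were 114, 420 and 1175 TPM, and 14 of the 16 exceeded the highest PFC library. The means were 102 ± 76 TPM in PFC (SD, n = 4) and 520 ± 335 elsewhere (SD, n = 16), with a log2 difference of -3.19 (SE 0.64, limma adjusted p = 0.0101) and an exact permutation p of 0.0208. PFC lay below the other regions in 4 of 4 pools. The size of the difference rests on the 0 in the 20F library of PFC: without that library it was -1.63 and the limma adjusted p 0.663. The call was also lost without the 10F library of PFC, without 20F of PCC, 20F or 20M of TC, 10F, 10M or 20F of PC, and 10F or 20M of OC, with limma adjusted p from 0.101 to 0.368, while the log2 difference stayed between -3.53 and -3.09. With all libraries it was lost without a variance trend (limma adjusted p = 0.269), with voom (0.300), with a stricter filter (0.152) and with the study's own filter (0.0843).

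MDM2 gave 7 circRNAs in the neocortex, and the second most abundant shares its downstream end with the first (chr11:65809080-65813210). In PFC this longer form held 94.3, 81.4, 209 and 104 TPM in 10F, 10M, 20F and 20M. In deposited TPM it was thus highest in the library where the short form was listed at 0. That order rests on the deposited scaling: all TPM of 20F summed to 297426, against 201898, 176246 and 124769 in 10F, 10M and 20M. The short form made up 42.2% of the MDM2 circRNA level in PFC and 68.9% elsewhere. Summed over all its circRNAs, MDM2 stood at 216, 267, 209 and 277 TPM in PFC, against a lowest of 297, a median of 589 and a highest of 1523 elsewhere. All 4 PFC libraries were thus below all 16 others. This held for 1 of the 2680 genes tested at the level of sums (0.0373%), and the MDM2 sum did not pass the adjusted test (log2 difference -1.48, SE 0.39, limma adjusted p = 0.148; exact permutation p = 0.0140). With libraries scaled by size factors in place of the deposited constants, the groups overlapped.

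**Figure D3:**
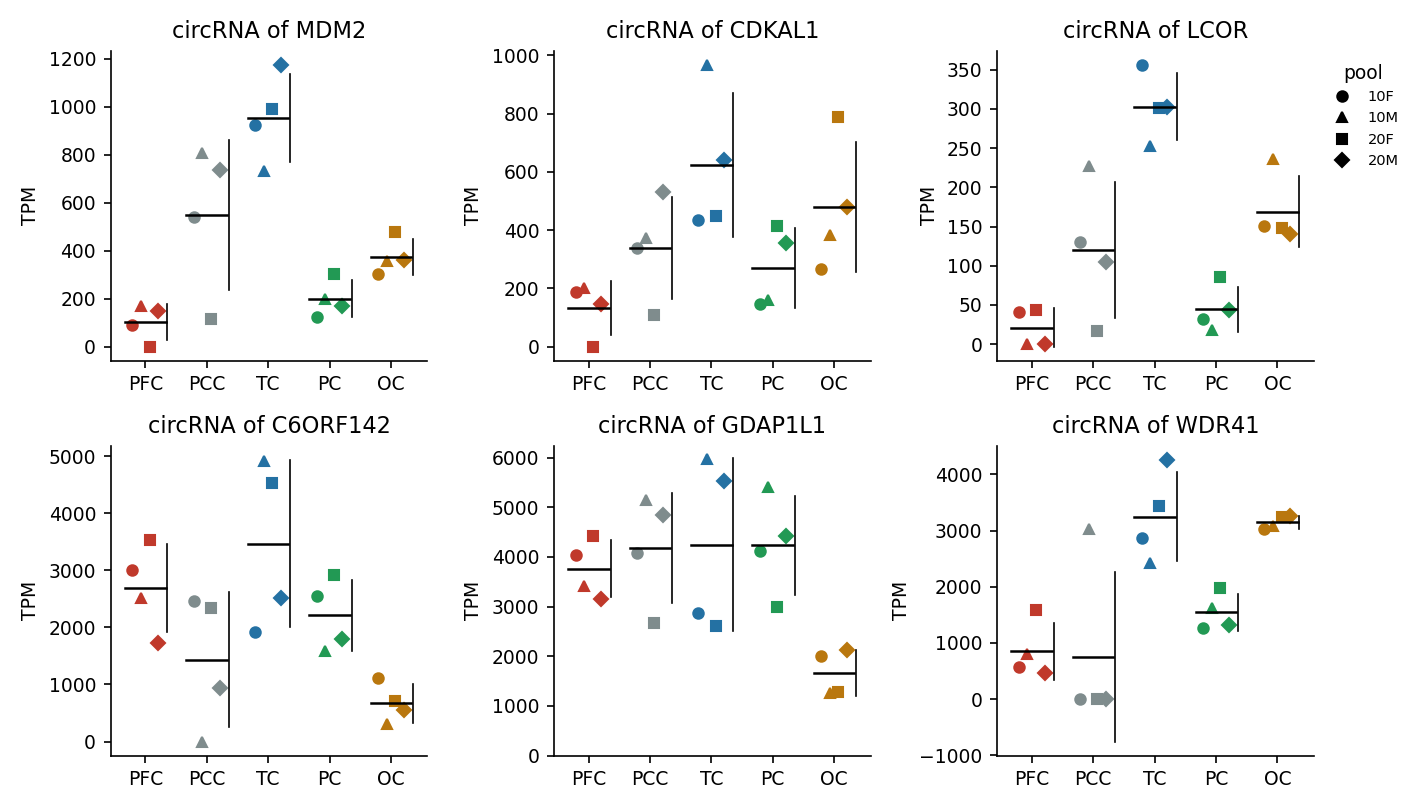
Levels of 6 circRNAs by region, in TPM. Each symbol is 1 library shaped by pool, horizontal lines are means and vertical lines are ±1 SD (n = 4). The circRNAs of MDM2, CDKAL1 and LCOR are low in PFC and PC and high in TC, those of C6ORF142 and GDAP1L1 are low in OC, and that of WDR41 is listed at 0 in 3 of 4 PCC libraries.

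No other circRNA passed the adjusted test, and in each of the 4 that came next among those lower in PFC at least 1 PFC library was listed at 0. A ring of XPO5, which encodes the exporter of pre-miRNAs, was listed at 0 in the 10F, 10M and 20M libraries of PFC and at 323 TPM in 20F, against 0 to 412 TPM elsewhere (log2 difference -4.12, SE 0.94, limma adjusted p = 0.0864; exact permutation p = 0.256). A ring of CDKAL1, a tRNA-modifying enzyme linked to type 2 diabetes, stood at 188, 201, 0 and 146 TPM in 10F, 10M, 20F and 20M, and at 108 to 967 TPM elsewhere (log2 difference -2.72, limma adjusted p = 0.112; exact permutation p = 0.0225). On leaving out libraries or pools its log2 difference ran from -3.44 to -1.06. In deposited TPM, as with MDM2, a longer CDKAL1 ring with the same downstream end was high where the shorter one was listed at 0. It stood at 396 TPM in the 20F library of PFC against 65.0 to 108 TPM in the other 3. A ring of the zinc finger gene ZNF827 was listed at 0 in 3 PFC libraries and at 203 TPM in 10M (limma adjusted p = 0.112; exact permutation p = 0.0828). A ring of LCOR, a corepressor of nuclear receptors, was at 40.5 and 44.0 TPM in 10F and 20F and at 0 in the male pools, against 16.8 to 356 TPM elsewhere (limma adjusted p = 0.149; exact permutation p = 0.0217).

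On the higher side, the 5 circRNAs with the smallest limma p did not pass the adjusted test. All but the C6ORF142 ring were found in at most 2 of the 16 other libraries and so passed the filter through their reads in PFC. They had to be higher there, and their levels are a description without a test. A ring of ATP8A1, a phospholipid flippase, stood at 9.93, 11.6, 58.7 and 6.55 TPM in 10F, 10M, 20F and 20M of PFC. Elsewhere it was found in 1 of 16 libraries, at 1.62 TPM. A ring of GPHN, the gene of gephyrin, which anchors glycine and GABA-A receptors at inhibitory synapses, was at 15.7, 5.77, 10.6 and 3.53 TPM in PFC and at 0 in the other 16 (chr7:130119730-130206156). The PFC mean of 8.91 TPM was at least 2.01-fold higher than the level that 3 reads per library would give in the others, on average 4.43 TPM. The remaining circRNAs were a ring of HAUS5, a subunit of the augmin complex, an intergenic circRNA on chromosome 12 and the C6ORF142 ring described above. HAUS5 and the intergenic circRNA were listed at 0 in 1 PFC library each.

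In all, 6509 circRNAs were found in PFC and in none of the other 16 libraries, and 6195 of these (95.2%) came from a single library. They held 6.74% of the PFC reads. Besides the GPHN ring, 1 circRNA was found in all 4 PFC libraries and in none of the others, a ring of the palmitoyltransferase gene ZDHHC3 (chr2:91570963-91585234) at 5.79, 4.62, 14.7 and 2.52 TPM. The same count was 3 for OC and 0 for PCC, TC and PC. With ATP8A1, the rings of GPHN and ZDHHC3 were the 3 circRNAs (0.0212% of those tested) whose 4 PFC libraries all lay above the 16 others, which the filter favours in the same way. The other libraries include shallower ones: 3 reads amounted to 1.51 to 2.48 TPM in PFC and to 0.917 to 15.4 TPM elsewhere, so levels of this size were not detectable in each of them.

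By the exact permutation test at an unadjusted p under 0.01, 66 circRNAs were higher in PFC (0.466%) and 7 lower (0.0494%), and none passed Benjamini-Hochberg adjustment, where the smallest adjusted p was 0.975. Those higher were rare, with a median PFC mean of 13.7 TPM against 0.811 TPM elsewhere and a median of 3 of 16 other libraries, and those found in no other library depended on PFC reads to be tested. Those lower, listed here after their values were seen, were better covered: rings of INPP5A (exact permutation p = 0.00103), RANBP17, PAN3, H2AFV, MYO6, ZYG11B and RALGAPB, with a median of 26.8 TPM in PFC and 113 TPM elsewhere. In 5 of these 7 the 20F library of PFC was at 0.

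Without the 20F library of PFC, limma called 47 circRNAs higher and 2 lower. Of the 47, 38 were listed at 0 in the omitted library, 30 were found in none of the other 16 and 46 in at most 2 of them. Those 30 were tested only because of their PFC reads, so their direction was fixed by the filter and the count of 47 is no measure of how many circRNAs were higher. Their levels were low, with a median of 7.47 TPM and a highest of 24.0 TPM over the 3 remaining PFC libraries. The first were rings of TOM1L1, ZDHHC3, ATP8A1 and GPHN. Without all 3 libraries with over 95% clean reads, 64 were higher and 8 lower, and 42 of the higher ones were shared by both settings. Of the 64, 27 were found in none of the other 16 libraries, 60 in at most 2 of them, and 56 were listed at 0 in PFC 20F. The same limit thus applies to this count. Both settings use the same 3 PFC libraries, so the shared calls add no evidence. Leaving out single control libraries moved the count of higher circRNAs from 0 to 10 without 20F of PCC, to 11 without 10M of PC and to 4 without 20F of PC.

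Summing the circRNAs of each gene gave 2680 genes above 0 in at least 10 of 20 libraries, and none of them differed between PFC and the other neocortex at an adjusted p under 0.05 by limma. At an unadjusted p under 0.05, 21 sums were higher in PFC (0.784%) and 131 lower (4.89%). This split depended on the scaling: with size factors it was 54 higher and 93 lower, with equal library totals 63 and 90, and the median log2 difference of all sums moved from -0.07 to 0.11 with size factors. Of all sums, 1251 lay above 0 (46.7%) and 1429 below (53.3%).

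The 5 lower sums with the smallest p, all with a limma adjusted p of 0.112, belonged to INPP5A, LCOR, GALNT14, CAMK4 and RALGAPB. INPP5A, a phosphatase that inactivates the calcium-releasing messenger inositol trisphosphate, stood at 61.2, 82.6, 0 and 68.0 TPM in 10F, 10M, 20F and 20M of PFC, against 53.6, 231 and 312 TPM (lowest, median and highest) elsewhere. Of the 16 other libraries, 15 exceeded the highest PFC value (log2 difference -2.73, SE 0.62, limma adjusted p = 0.112; exact permutation p = 0.000826). On leaving out libraries or pools the INPP5A difference ran from -3.25 to -1.36. CAMK4, a calcium and calmodulin-dependent kinase of the neuronal nucleus, was found in 1 PFC library at 4.96 TPM and had a median of 41.9 TPM elsewhere (limma adjusted p = 0.112; exact permutation p = 0.0369). GALNT14, an enzyme of O-glycosylation, stood at 0, 93.0, 47.3 and 31.7 TPM against a median of 136 TPM, and RALGAPB, a subunit of a Ral GTPase-activating complex, at 85.2, 16.7, 0 and 28.7 TPM against a median of 119 TPM. The LCOR sum followed its single main ring. The higher sums with the smallest p were LZTR1, SNTG2, RAB11FIP3, CADM1 and GALNT7, with limma adjusted p from 0.258 to 0.666. In each of these 5 the 20F library of PFC was the highest of the 4, for example 507 TPM for SNTG2 (gamma-2-syntrophin) against 130 to 256 TPM in its companions.

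**Figure D4:**
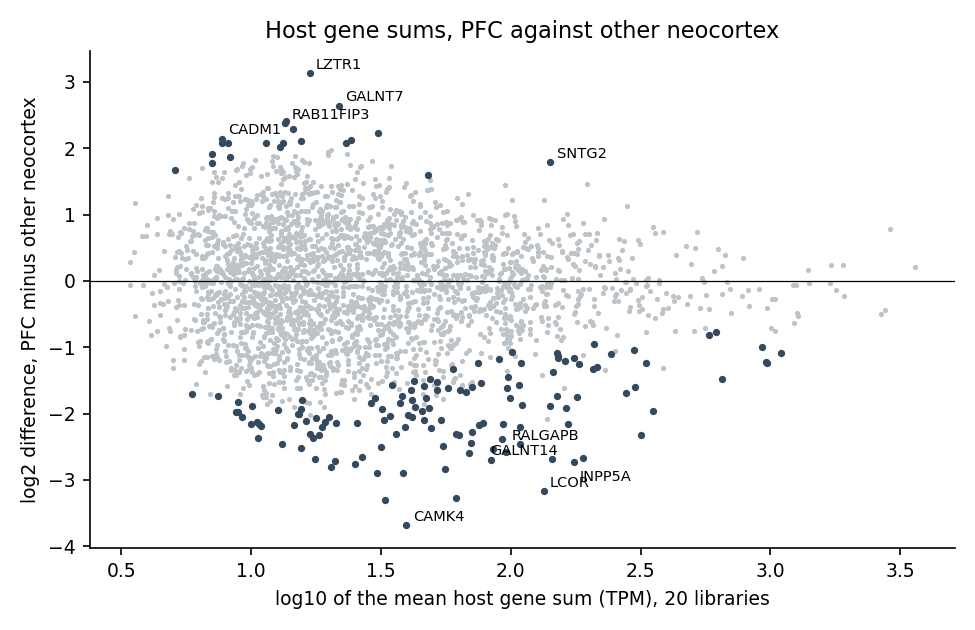
Host gene sums in PFC against other neocortex. Each point is 1 of 2680 genes, with the log10 of its mean sum in TPM over 20 libraries on the x axis and the log2 difference (PFC minus other neocortex) on the y axis. Dark points have an unadjusted limma p under 0.05 (21 higher, 131 lower), and the 5 genes with the smallest p in each direction are named; none passed the adjusted test.

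In comparisons of PFC with each region alone, few circRNAs passed the adjusted test, and the order of the regions by their counts depended on the processing. At an adjusted p under 0.05 by limma, 3 circRNAs were higher and 0 lower than in PCC (0.0212% and 0%), 5 higher and 6 lower than in TC (0.0353% and 0.0423%), 0 and 0 for PC (0% each), and 3 higher and 0 lower than in OC (0.0212% and 0%). For sums the counts were 1 and 0 against PCC (0.0373% and 0%), 1 and 4 against TC (0.0373% and 0.149%), 0 and 0 against PC, and 1 and 0 against OC. Against PC, 336 higher and 440 lower of 14174 circRNAs reached an unadjusted limma p under 0.05, and 27 and 102 of 2680 sums. By chance alone a share of 0.05 of the tests would reach it. Whether these counts differ between regions was not tested, and the comparisons share the PFC libraries. With size factors the counts of higher and lower circRNAs were 3 and 0 for PCC, 7 and 4 for TC, 2 and 0 for PC and 7 and 6 for OC. Without the 20F library of PFC they were 8 and 2, 6 and 3, 7 and 1, and 8 and 5. When each circRNA kept more of its own spread, by a fit without the variance trend, 0 circRNAs passed against TC, PC and OC and 6 against PCC.

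Against TC, the 6 lower circRNAs were rings of MDM2, XPO5, LCOR, CDKAL1, EML5 and an intergenic one on chromosome 14. MDM2, LCOR, CDKAL1 and EML5 did not overlap between the 4 PFC and 4 TC libraries. Their exact permutation p was 0.0286, the smallest that 4 against 4 libraries can give. These rings were called on the same libraries, so the separation adds no evidence. The share of all circRNAs that separate in this way was not counted. MDM2 was at 731 to 1175 TPM in TC (log2 difference -4.38, SE 0.77, limma adjusted p = 7.56e-05). LCOR was at 252 to 356 TPM there against 0 to 44.0 TPM in PFC (log2 difference -5.10, SE 1.13, limma adjusted p = 0.0153). EML5, a microtubule-associated protein gene, was at 1152 to 1935 TPM in TC and at 222 to 962 TPM in PFC. Among sums, LCOR, MDM2, EML5 and TMEM135, a gene of mitochondria and peroxisomes, were lower than in TC, and TMEM135 stood at 0 to 46.2 TPM in PFC and 146 to 280 TPM in TC (limma adjusted p = 0.0402). The 5 higher rings, of STK39, MAP7, ZFPM2, RGS7 and EXOC6B, were each listed at 0 in 1 to 3 of the 4 TC libraries. STK39, a kinase that regulates chloride cotransporters, was at 281 to 764 TPM in PFC and at 212 TPM in 1 TC library.

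The order of regions was alike for several of these rings. Mean MDM2 levels rose from 102 TPM in PFC through 199.98 in PC, 374 in OC and 549 in PCC to 955 in TC, and mean LCOR levels from 21.1 in PFC through 44.6 in PC, 120 in PCC and 169 in OC to 303 in TC. In both rings PFC and PC overlapped and did not differ by limma (adjusted p = 0.735 for each). In likeness of whole profiles, PFC libraries were also nearest to PC: the median Spearman correlation across 3740 circRNAs was 0.428 between PFC and PC libraries, 0.438 among PFC libraries, and 0.371 to 0.383 between PFC and the other 3 regions. These correlations are a description across circRNAs that share libraries, pools and depth. PFC libraries held 244062 to 364927 reads, PC libraries 181780 to 430956, OC libraries 136869 to 361224, PCC libraries 78611 to 894932 and TC libraries 58037 to 195477. The part of depth in the likeness was not tested.

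Against OC, PFC was higher in rings of C6ORF142, GDAP1L1 and YAF2. C6ORF142 was at 300.2 to 1106 TPM in OC and at 1718 to 3533 TPM in PFC, with no overlap (log2 difference 2.11, SE 0.40, limma adjusted p = 0.00247; exact permutation p = 0.0286). This ring too was called on these libraries, so the lack of overlap adds no evidence. The C6ORF142 sum over 17 circRNAs of the gene was 386 to 1374 TPM in OC and 2302 to 4922 TPM in PFC (limma adjusted p = 0.0165). GDAP1L1 was at 1264 to 2126 TPM in OC and at 3162 to 4412 TPM in PFC (log2 difference 1.204, SE 0.26, limma adjusted p = 0.0194). Its means in PCC, TC and PC were 4182, 4250 and 4230 TPM, above the 3761 TPM of PFC. The YAF2 ring, listed as intronic, was at 744 to 1328 TPM in PFC and at 0 to 796 TPM in OC, with 1 OC library at 0 (limma adjusted p = 0.00254; exact permutation p = 0.0857). YAF2 encodes a Polycomb-associated protein. Against PCC the calls were rings of WDR41, UBXN7 and C6ORF142. The WDR41 ring, from a gene whose protein is a partner of C9orf72 in lysosomal regulation, was at 571, 803, 1581 and 458 TPM in PFC and was listed at 0 in 3 PCC libraries but at 3026 TPM in the 10M library of PCC, so its means were 853 and 756 TPM and the exact permutation p was 1. UBXN7 was listed at 0 in 2 PCC libraries and C6ORF142 in 1. These levels are given as listed, since a 0 in this table says that a ring was not called and not that it was absent.

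The study picked 5 circRNAs as enriched in PFC and designed divergent primers for them, which amplify across the back-splice junction and not from the linear RNA. It chose them on these libraries, so their direction here is not independent evidence. All 5 are exonic: CACNA1E (chr1:189113029-189116190, minus strand), CACNA1C (chr11:2601180-2609769, plus strand), PIK3C3 (chr18:35016611-35034200, plus strand), PKD2 (chr5:81032150-81032659, plus strand) and PRKCB (chr20:22502767-22506160, plus strand). The primers of the CACNA1E ring, the candidate with the smallest p here, and those of the PRKCB ring, whose levels did not separate, are shown in lower case as the study lists them.
CACNA1E forward: gctgtgctgactgtcttcc
CACNA1E reverse: cctgacacgagcttcaagg
PRKCB forward: ccacattgacagggatgttctc
PRKCB reverse: ggatgagtccatacagcagtga

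CACNA1E encodes the pore of the R-type voltage-gated calcium channel. Its ring stood at 21.5, 4.04, 42.4 and 10.1 TPM in 10F, 10M, 20F and 20M of PFC. In the other neocortex the lowest, median and highest were 0, 0.95 and 16.6 TPM, so the groups overlapped. The means were 19.5 ± 16.9 TPM (SD, n = 4) and 6.30 ± 7.32 TPM (SD, n = 16), with a log2 difference of 1.76 (SE 0.96, limma adjusted p = 0.837) and an exact permutation p of 0.0262, unadjusted. Without the 20F library of PFC this p was 0.255. The ring carried 90.3% of the CACNA1E circRNA level in PFC and 46.6% elsewhere.

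The other 4 candidates did not separate from the other neocortex, which is not the set of areas that the study used. CACNA1C, the pore of an L-type calcium channel, was at 67.8, 65.8, 151 and 50.9 TPM in PFC against a median of 68.8 TPM (30.02 to 139) elsewhere (exact permutation p = 0.704). PKD2, a cation channel of the primary cilium, was at 62.9, 120, 280 and 89.7 TPM against a median of 105 TPM (exact permutation p = 0.477). PIK3C3, the class III phosphoinositide kinase of autophagy, was at 69.5, 72.8, 97.8 and 48.9 TPM against a median of 67.0 TPM (exact permutation p = 0.875), and PRKCB, a protein kinase C, at 72.0, 44.5, 45.6 and 26.2 TPM against 45.2 TPM (exact permutation p = 0.806). Without the 20F library, PFC minus other neocortex was -14.4 TPM for CACNA1C, -4.98 TPM for PIK3C3 and -21.0 TPM for PKD2, and without the 10F library it was -4.44 TPM for PRKCB.

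Lists of neuronal genes were read at the level of sums, and 0 members of the 13 lists passed the adjusted test. Each list is given with its count of tested members and its median log2 difference, beside -0.07 for all 2680 sums. Ion channels were split: of 6 voltage-gated calcium channel genes 3 lay above 0 (median 0.04), and of 10 potassium and HCN channel genes 9 did (median 0.65). CACNA1A, the pore of the P/Q-type channel, had 653, 535, 1174 and 288 TPM in PFC and a median of 1175 TPM elsewhere. DPP10 and KCNH1, an auxiliary subunit and a pore subunit of potassium channels, had log2 differences of -0.11 (SE 0.45) and 0.41 (SE 0.55). Both tested genes of the sodium channel list, FGF12 and SCN8A, lay above 0 (0.36 and 0.58).

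Receptor lists lay near the background. The medians were -0.05 for 8 ionotropic glutamate receptor genes, -0.15 for 10 metabotropic glutamate and GABA receptor genes and 0.10 for 3 monoamine and acetylcholine genes. GRM8, a presynaptic glutamate receptor, had 283, 249, 235 and 9.07 TPM in PFC (log2 difference -1.05, SE 0.56), with the low value in 20M alone. GRM5, its postsynaptic relative, had 123, 147, 342 and 79.1 TPM (0.49, SE 0.49). GRID1 and GRIK2 had log2 differences of -0.13 (SE 0.59) and 1.62 (SE 0.93), and ADRA1A and PDE10A of -0.56 (SE 0.95) and 0.33 (SE 0.93).

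Of the synaptic lists, the adhesion genes had the highest median, 0.70 over 15 genes with 14 above 0 (46.7% of all sums lay above 0), followed by the postsynaptic scaffold (0.39 over 15) and the presynaptic active zone (0.21 over 18). The summed level of the adhesion genes was 1208 TPM in the 20F library of PFC and 211 to 560 TPM in its companions. With size factors the 3 medians were 0.84, 0.42 and 0.42, beside 0.11 for all sums. RIMS1, an active zone scaffold, had 879, 815, 1248 and 389 TPM in PFC and a median of 1390 TPM elsewhere (log2 difference -0.64, SE 0.38), and RIMS2 had a difference of 0.21 (SE 0.43). DLGAP3 and DLG1, both postsynaptic scaffolds, had differences of -0.36 (SE 0.38) and 0.55 (SE 0.44). LRRC4C and TENM3, of the adhesion list, had 0.30 (SE 0.58) and 1.15 (SE 0.92). UNC13C, a priming factor for synaptic vesicles, was at 4.61 TPM in 1 PFC library and at 0 in 3 (median 10.1 elsewhere), and reached an unadjusted limma p of 0.0482.

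The list of calmodulin-dependent kinases and protein kinase C also holds genes of protein kinases A and G. Its median was -0.54 over 14 tested genes, 10 of them below 0. Of the 14, 3 were lower at an unadjusted limma p under 0.05, beside 4.89% of all sums, and none at an adjusted one: CAMK4 as above, CAMK2B, which was at 0 in all 4 PFC libraries and had a median of 7.61 TPM elsewhere, and PRKCA, at 20.7, 35.8, 3.26 and 12.1 TPM against a median of 45.3 TPM. PRKCB and CAMK1, the most abundant of the list in PFC, had differences of 0.09 (SE 0.45) and -0.72 (SE 0.54). Axon guidance genes had a median of 0.16 over 11, with ROBO2 at 501, 383, 870 and 278 TPM and ROBO1 at 5.79, 42.2, 102 and 27.7 TPM, and NTN1 at an unadjusted limma p of 0.0388 with 0 in both the 10F and 20M libraries of PFC. Transcription factors of cortical areas and layers had a median of 0.01 over 16, with THRB at 0.56 (SE 0.52) and ZFPM2 at 0.93 (SE 0.99). Of the retinoic acid list, 1 gene was tested, ALDH1A2 (-0.86, SE 1.00), and ALDH1A1 was found in 1 PFC library at 11.6 TPM.

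**Figure D5:**
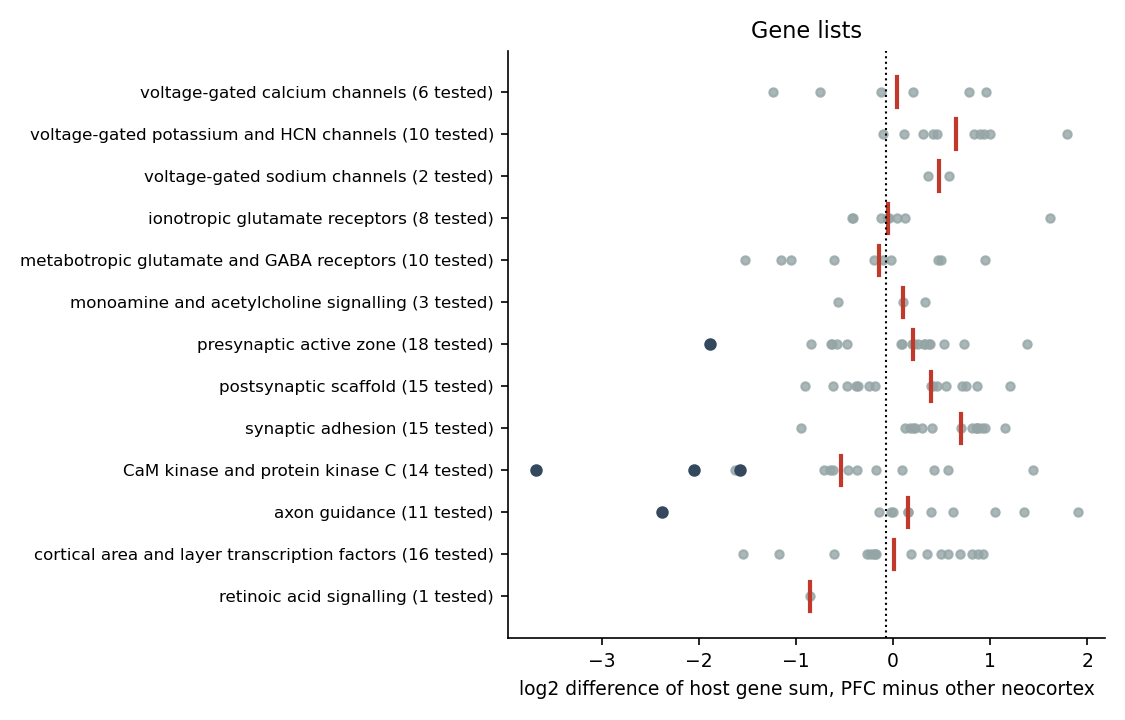
Gene lists at the level of host gene sums. Each point is 1 tested gene with its log2 difference, PFC minus other neocortex, on the x axis; dark points have an unadjusted limma p under 0.05, red bars are list medians and the dotted line is the median of all 2680 sums (-0.07). The list of calmodulin-dependent kinases and protein kinases C, A and G lies furthest to the left among lists with over 3 tested genes. No gene passed the adjusted test.

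Markers of cell types were of limited use, since a marker gene need not make circRNAs. Of 13 excitatory neuron markers, 10 had circRNAs, and their summed level was 215 to 562 TPM in PFC and 150 to 890 TPM elsewhere. Of 15 inhibitory neuron markers 7 had circRNAs, with 97.8 to 150 TPM in PFC and 15.7 to 158 TPM elsewhere. Oligodendrocyte markers (11 of 15) summed to 27.7 to 176 TPM in PFC and 17.6 to 173 TPM elsewhere, and astrocyte markers (9 of 13) to 235 to 566 and 59.6 to 713 TPM. Microglial markers (3 of 10) and vascular markers (4 of 11) stayed at or under 12.1 and 14.7 TPM in PFC. Oligodendrocyte precursor markers (7 of 8) gave 31.8 to 57.7 TPM in PFC and 7.25 to 81.7 TPM elsewhere. Markers of neighbouring structures gave 84.0 to 99.3 TPM (striatal), 30.2 to 138 TPM (cerebellar) and 19.9 to 96.2 TPM (hippocampal) in PFC, against 22.4 to 201, 0 to 101 and 0 to 80.1 TPM elsewhere. Within each list the PFC and other ranges overlapped. Detection in PFC differed between single genes of a list. Of the inhibitory markers, GAD2 and SST were at 0 in all 4 PFC libraries, while ERBB4 was found in all 4, at 68.4 ± 13.5 TPM (SD, n = 4). The oligodendrocyte markers MBP, MOBP and MOG were at 0 in all 4. The excitatory marker CAMK2A was found in all 4, at 24.8 ± 13.3 TPM (SD, n = 4). Levels of these genes in the other neocortex are not given here, so none of these values is a difference between PFC and other regions.

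Differences by age and sex within PFC were compared with those in the other neocortex as interaction terms in limma, with 2 PFC libraries per age and per sex. No circRNA and no sum had an adjusted p under 0.05 for either term (0% of each). At an unadjusted limma p under 0.05, 563 of 14174 circRNAs had a higher 20-year minus 10-year difference in PFC than elsewhere. A lower one was seen for 330, and male minus female gave 223 higher and 642 lower. For the 2680 sums the counts were 20 and 94 for age and 50 and 61 for sex. By chance alone a share of 0.05 of the tests would reach this p. Leaving out 1 PFC library leaves 1 library in an arm, which is then assumed to vary like the others. The circRNA counts then ran from 14 to 693 for age, highest without the 20M library of PFC, and from 0 to 702 for sex, highest without the 10F library.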

How the data were processed

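RNA of 8 rhesus macaques was pooled in pairs of one sex and age, depleted of poly(A), ribosomal and linear RNA and sequenced. The authors trimmed reads with cutadapt, aligned them with BWA and called circRNAs with CIRI2 at 2 or more back-splice reads; the genome build is not given in the sources used here. The deposited values are in TPM, which within a library were whole multiples (within 0.02 TPM) of 1 step, the smallest value being 2 steps; they were read as back-splice reads times a constant whose divisor is not given, so totals per library are recovered reads. Such reads were not accepted as counts, and the planned edgeR fit was not run. Of 52828 circRNAs, 43868 occur in the neocortex. Of these, 14174 were kept by a filter adapted from the study's. A circRNA passed with 3 or more reads in 2 or more libraries each of 2 or more regions. It also passed with 1 such region and 3 or more reads in at least 4 libraries of any region. Failing both, a total of 30 or more reads sufficed. The 14174 circRNAs hold 94.0% of the reads. For gene sums, circRNAs with a single gene ID were added up. The 12 columns of hippocampus and cerebellum were not used.

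The 4 PFC libraries were compared with 16 others by limma 3.58.1 (R 4.3.3; eBayes with trend, Benjamini-Hochberg adjustment) on log2(TPM + 1.775), the pseudocount being the median smallest value, so log2 differences understate those of low circRNAs, and by exact two-sided permutation of means over 4845 choices (Python 3.11.15, numpy 2.4.6). Scripts were tested on simulated data. Each pool stands for the same animals in every region and so pairs the libraries; deviations from region means correlated by 0.023 to 0.056 on average within pools and by -0.013 between pools. Permuting within pools gives 625 choices. Named items are the 5 PFC candidates of the study, the circRNAs and sums with the smallest p (up to 10 per direction past the threshold, otherwise 5), per gene list those past the threshold or otherwise the 2 with the highest PFC sum, the 10 highest circRNAs of PFC and the first sum of each regional contrast. Members of lists with an unadjusted p under 0.05, and all regional calls, were added after seeing the data. The groups, lists and tests were chosen with earlier results of these data known. Libraries are separate RNA pools, and intervals between them cover animals, dissection and sequencing together; 3 reads were taken as the floor, which covers counting error only. Primers were copied from the study's supplementary table.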

Additional observations from a re-analysis of the deposited data

Results flagged for a closer look

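In groups of 4 libraries, 72 sets of values were searched for a library set far from the rest by Dixon's criterion, which chance meets in about 1 in 20 groups, and 14 were found. The named items among these sets were chosen on the same libraries, so that share does not hold for them. Of the library measures, the 20F library of PCC held 894932 back-splice reads, far above the other PCC libraries. The 20M library of TC had 8.12% of its reads in intronic circRNAs, above its companions, and the 10F library of TC had 32.6% in its 100 most abundant circRNAs, below its companions. Among named items, the 20F library of PFC lay apart from the other PFC libraries in 8 cases: the rings of CACNA1C (151 TPM), ATP8A1 (58.7 TPM), XPO5 (323 TPM), the unnamed gene ENSMMUG00000005637 (3260 TPM), MAP7 (3156 TPM) and the intergenic ring on chromosome 14 (2418 TPM), and the sums of LZTR1 (152 TPM) and CADM1 (61.1 TPM). The remaining 3 were the ZNF827 ring in 10M (203 TPM), the CAMK4 sum in 10F (4.96 TPM) and the SNX13 sum in 20M (4.54 TPM), each the only PFC library in which the item was found. Their causes were not tested.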

How the results depend on the processing

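Depth, the 20F library of PFC and the variance model limited the comparison: sparse circRNAs had many values of 0, 3 reads stood for up to 15.4 TPM, and the causes of the changes below were not tested. limma circRNAs higher in PFC, 0 with all libraries, numbered 2 without a variance trend, 1 with size factors, 2 with equal library totals, 2 with no filter, 3 without PCC, 6 without PC, 64 without the 3 libraries with over 95% clean reads, and 0 to 47 on leaving out libraries or pools. With size factors and without the 20F library of PFC (added after seeing the data) they numbered 56. circRNAs lower, 1 with all libraries, numbered 3 with 5 regions as levels, 2 with a pseudocount of 1 TPM, 5 with the smallest pseudocount tried, 2 with size factors or equal totals, 2 with voom (MDM2 not among them), 6 with no filter, 0 with a stricter filter, the study's filter over 32 libraries or without any one region, 8 without the 3 libraries, and 0 to 2 on leaving out libraries or pools. Lower sums, 0 with all libraries, numbered 7 without PC, 2 without the 3 libraries and 0 to 2 on leaving out libraries or pools. By the exact test, 138 higher and 2 lower circRNAs were found with size factors, 11 higher with the stricter filter, 40 lower on log2 values, 13 lower without the 3 libraries, and 35 to 67 higher and 3 to 7 lower on leaving out PFC libraries.

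Against single regions, a fit without a variance trend (added after seeing the data) gave 6 circRNAs for PCC and 0 for TC and OC, and 0, 1 and 0 sums. Size factors gave 2 circRNAs for PC, 13 for OC and 3 sums for OC. Leaving out PFC libraries gave 1 to 10 circRNAs for PCC, 1 to 9 for TC, 0 to 8 for PC and 0 to 13 for OC, and 0, 3 to 7, 0 and 0 to 4 sums. Interactions without the 3 libraries gave 116 circRNAs for age and 164 for sex and 1 sum for sex; leaving out PFC libraries gave 14 to 693 and 0 to 702 circRNAs and 0 to 1 sums each. The log10 distance differed by 0.097 without the 3 libraries. The WDR41 sum reversed to -1.70 without PCC and -0.62 without the 3 libraries, and ran from -0.32 to 0.85 on leaving out libraries or pools. The candidate differences ran from -14.4 to 18.9 TPM (CACNA1C), -4.98 to 11.3 (PIK3C3), -21.0 to 51.2 (PKD2) and -4.44 to 10.8 (PRKCB).

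With the pool as a replicate block, limma gave 0 higher and 1 lower circRNA (MDM2, adjusted p = 0.00848), also with an estimated correlation within pools, and 0 sums in either direction, and the exact test gave 69 higher and 9 lower. Against PCC the block gave 3 higher and 1 lower circRNA in place of 3 and 0; it changed no other count by over 1.5 times, and with size factors and the block (added after seeing the data) 2 circRNAs were higher and 3 lower. The edgeR fit was not run, since the deposited values are TPM, and voom used size factors by medians of ratios in place of TMM.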
